A study of Mus musculus with 8 samples.

Results

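Usp18, Gm44148, Isg15, Uba7 and Herc6 were described in the EO771 mouse breast cancer cell line: the ISG15-specific protease, the non-coding gene annotated on the strand opposite it, and 3 genes of ISG15 conjugation. These 5 of the 49997 genes in the count table were matched by symbol. They were chosen with earlier results of these libraries known, above all the large difference of Gm44148 between treated and control libraries, so the values of the 5 genes in the treatment comparisons are given as a description, without a test. Of the 5, Usp18 and Gm44148 passed the filter on low values, a mean of 10 counts over all 8 libraries, as did 6901 genes in all. Isg15, Uba7 and Herc6 did not pass it, and their counts were read directly.

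Libraries came from 4 groups of EO771 cells with 2 libraries each. For 48 h, cells were given 12-HETE, a lipid made from arachidonic acid by 12-lipoxygenase, at 100 nM, or its vehicle of saline with DMSO. In the other experiment, cells were transduced with an empty vector or with a vector that overexpressed ADAR1 p150, the interferon-inducible form of the RNA editing enzyme ADAR1. Nothing in the labels says that the libraries of a group came from separate cultures, so p-values measure only the spread between these libraries. All groups share 1 cell line, and the 2 treatments have separate controls. Total counts were between 1101767 and 1537037 per library, with the treated libraries deeper than the untreated ones. The paper gives removal of duplicate reads under its editing analysis, and does not say whether gene counts were made after it. Between 44.4% and 50.3% of each total went to a single gene, AY036118. A value of 3 counts stands for 1.95 to 2.72 CPM (counts rescaled so that libraries of unequal depth compare) here, a floor that covers counting error only. Adar, which encodes ADAR1, had 5 and 5 counts in vehicle cells, 7 and 6 under 12-HETE, 2 and 8 in vector cells, and 181 and 140 with the p150 vector. Of 8 mammary epithelial markers 7 had counts, with Cdh1 at 0 in all libraries, and the summed level was between 186 and 345 CPM. Of 12 markers of immune, endothelial and stromal cells 9 had counts, with Cd3e and Adgre1 among those at 0, and the summed level was between 38.3 and 54.9 CPM. Vim had the most counts of these markers in every library, between 28 and 65, and made up most of that sum. Within the latter list the endothelial gene Cdh5 had 9 and 7 counts in vehicle cells, 0 and 0 under 12-HETE, 4 and 7 in vector cells, and 1 and 2 under ADAR1 p150. Whether this bears on the results was not tested.

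ISG15 is a small ubiquitin-like protein that cells make in response to type I interferon. It is activated by the E1 enzyme UBA7, passed to the E2 enzyme UBE2L6, and joined to target proteins by E3 ligases, of which HERC6 is the main one in the mouse. USP18 removes ISG15 from its targets, and it also binds the interferon receptor subunit IFNAR2 and dampens signalling from it. The genes of this cycle are themselves interferon-stimulated genes. RNA counts do not measure ISG15 conjugates.

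Usp18 (ENSMUSG00000030107.10) is a plus-strand gene at chr6:121245906-121270917 (GRCm38), and its main transcript has 11 exons and 1771 bases. Gm44148 (ENSMUSG00000107736.1), annotated as a lincRNA, lies on the minus strand at chr6:121255203-121272685 and has 1 transcript of 316 bases in 2 exons. The genes overlap over 15715 bases, but their exons share only 124 bases, at chr6:121255264-121255387, where exon 2 of Gm44148 runs opposite exon 4 of Usp18. That stretch is 39.2% of the Gm44148 transcript and 7.0% of the main Usp18 transcript, and it is protein-coding in Usp18. Exon 1 of Gm44148, with 131 bases, starts beyond the 3′ end of Usp18, and 1637 bases lie between them. These exons are shown because they decide which reads the 2 genes could share. Capitals mark the 124 shared bases, each exon is written 5′ to 3′ on its own strand, and the sequences are from the GENCODE M21 transcripts.

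Gm44148 exon 1, chr6:121272555-121272685, minus strand: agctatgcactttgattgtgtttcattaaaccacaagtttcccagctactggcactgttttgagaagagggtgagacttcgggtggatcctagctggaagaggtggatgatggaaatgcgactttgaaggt
Gm44148 exon 2, chr6:121255203-121255387, minus strand: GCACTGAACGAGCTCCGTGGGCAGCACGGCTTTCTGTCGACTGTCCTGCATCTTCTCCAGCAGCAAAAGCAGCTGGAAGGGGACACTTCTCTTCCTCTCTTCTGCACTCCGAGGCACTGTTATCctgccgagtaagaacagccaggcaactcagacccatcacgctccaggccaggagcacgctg
Usp18 exon 4, chr6:121255264-121255409, plus strand: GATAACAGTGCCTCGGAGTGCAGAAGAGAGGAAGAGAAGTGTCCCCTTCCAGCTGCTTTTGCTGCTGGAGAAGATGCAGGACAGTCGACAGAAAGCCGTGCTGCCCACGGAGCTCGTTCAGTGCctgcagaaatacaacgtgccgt

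**Figure D1:**
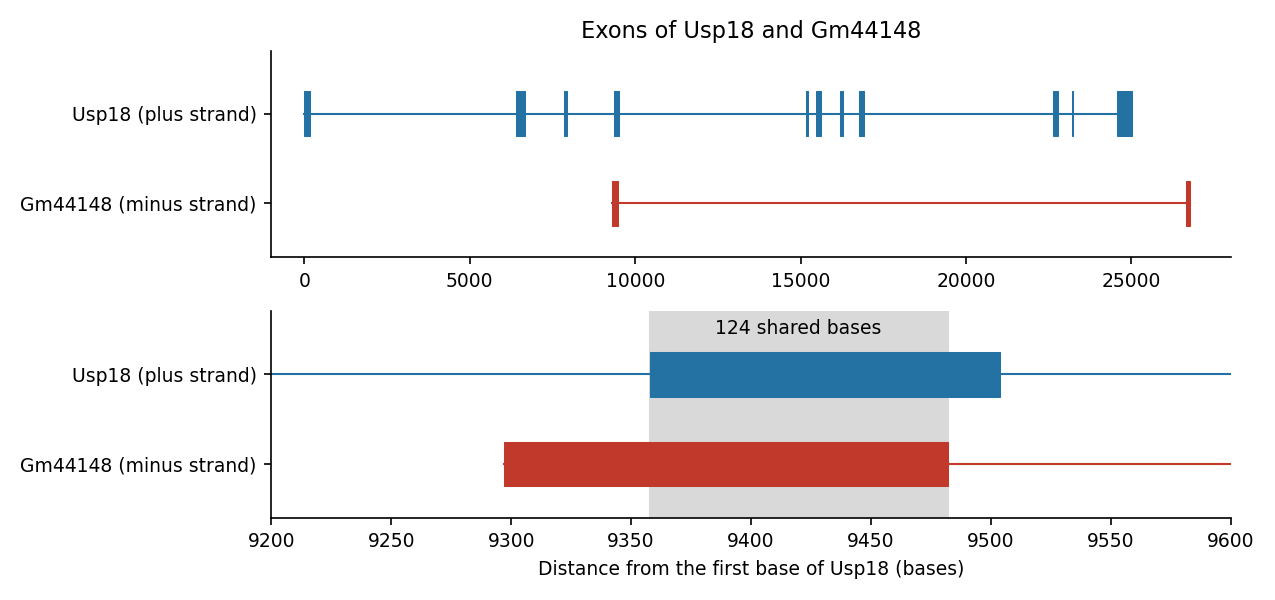
Exons (boxes) of the main Usp18 transcript on the plus strand and of Gm44148 on the minus strand, by distance in bases from the first base of Usp18. The upper panel shows both genes and the lower panel the 124 shared bases in grey, where exon 2 of Gm44148 lies opposite exon 4 of Usp18.

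The methods describe directional libraries, but whether reads were counted by strand is not given in the sources used here. Reads from Usp18 and from Gm44148 within the 124 shared bases therefore cannot be told apart. If directional libraries had been counted with the opposite setting, reads of either strand would have been credited to the gene on the other, and the directions given for Usp18 and Gm44148 would not be those of their own transcripts. This was not tested. The limit holds for the counts of all genes given here, also those without an annotated gene on the opposite strand.

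The promoters of Isg15, Uba7, Herc6 and Ube2l6 were taken from RefSeq (GRCm38.p6), from 250 bases before to 50 bases after the start. Usp18 and Gm44148 had no entry. The core of the interferon-stimulated response element, GAAANNGAAA, was searched on both strands with overlaps counted, in the 250 bases before the start. It was found 3 times in the Isg15 promoter, the matches beginning between positions -78 and -66 relative to the start, and 0 times in the other 3. It was found in 2.98% of all 32851 promoters, and in any promoter of 3.46% of all 27025 genes. Of the other interferon-stimulated genes on the list described below, 9 of 26 had it in any promoter. The Isg15 stretch is shown since it holds all 3 matches, which overlap and are in capitals.

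Isg15 promoter, chr4:156200845-156200926, minus strand: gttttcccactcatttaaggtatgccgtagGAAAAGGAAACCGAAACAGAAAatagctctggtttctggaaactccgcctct

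Gm44148 was among the most abundant genes of the control libraries and ranked far lower in both treatments. It had 1306 and 1191 counts in vehicle cells and 179 and 157 under 12-HETE. In vector cells it had 1318 and 1294 counts, and under ADAR1 p150 281 and 311. Treated and control libraries were far apart, and the 12-HETE libraries were lower than those under ADAR1 p150. Ranked by count, Gm44148 was between 31st and 35th in the control libraries, 841st and 928th under 12-HETE, and 510th and 450th under ADAR1 p150. After TMM normalization the mean level went from 1053 ± 91.9 CPM in vehicle cells to 124 ± 5.27 CPM under 12-HETE (SD, n = 2), 8.48-fold lower, a log2 fold change of -3.08 (SE 0.11). With ADAR1 p150 it went from 1167 ± 51.3 to 216 ± 26.5 CPM (SD, n = 2), 5.40-fold lower, a log2 fold change of -2.43 (SE 0.11). The effect of 12-HETE minus that of ADAR1 p150 was -0.65 (SE 0.16) on the log2 scale, given without a test since both effects chose the gene. In this bulk RNA, fewer cells with the transcript and less transcript per cell cannot be told apart.

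Usp18, the ISG15 protease, had far fewer counts, and they were higher in the treated libraries. It had 22 and 21 counts in vehicle cells, 28 and 35 under 12-HETE, 20 and 21 in vector cells, and 48 and 44 under ADAR1 p150. Both treated groups lay above their controls after normalization, most clearly under ADAR1 p150, while the lower 12-HETE library was close to the vehicle libraries. The mean was 18.1 ± 1.00 CPM in vehicle cells and 23.4 ± 4.83 CPM under 12-HETE (SD, n = 2), a log2 fold change of 0.36 (SE 0.30). It was 18.3 ± 0.065 CPM in vector cells and 33.5 ± 0.36 CPM under ADAR1 p150 (SD, n = 2), 1.83-fold higher, a log2 fold change of 0.87 (SE 0.28). The 12-HETE value was 0.14 without 12-HETE replicate 5 and 0.56 without 12-HETE replicate 4. When the counts of Usp18 and Gm44148 were added, the log2 fold change of the sum was -2.86 for 12-HETE and -2.25 for ADAR1 p150. Both were opposite in direction to Usp18 counted alone. What a count that ignored strand would give for reads in the shared bases was not tested.

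For orientation, among all 6901 genes tested 6.12% were called higher and 8.25% lower under 12-HETE, and 8.11% higher and 4.69% lower under ADAR1 p150. A gene was called at a Benjamini-Hochberg adjusted p under 0.05 in edgeR's quasi-likelihood test and a change of at least 2-fold. Since the 5 genes were chosen on these comparisons, no share of them is read against those values. The comparison that the choice did not use was vector against vehicle, where 0.0435% of genes were called in either direction. Of the 2 tested genes 0 were called there, and 0 had an unadjusted p under 0.05, both in edgeR and in DESeq2. Usp18 differed by a log2 fold change of 0.014 (SE 0.32, adjusted p = 0.997, edgeR). Gm44148 differed by 0.15 (SE 0.096, adjusted p = 0.556, edgeR), with both vector libraries slightly above both vehicle libraries.

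**Figure D2:**
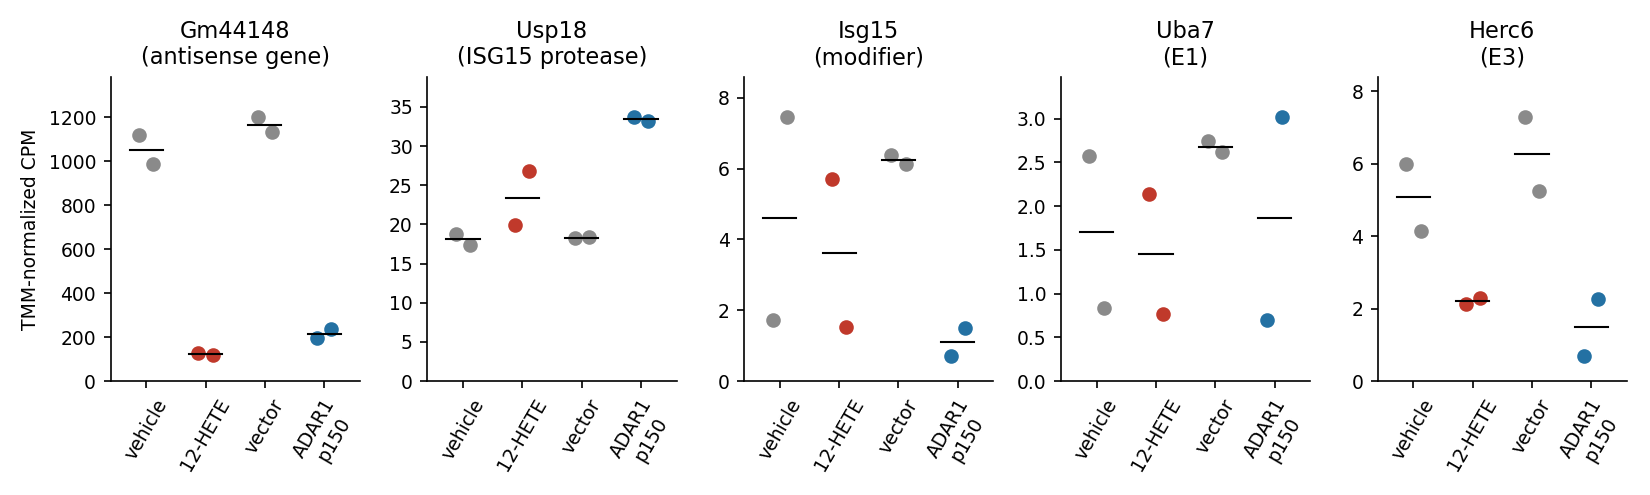
TMM-normalized CPM of the 5 genes in each library (points) with the group mean (line), for vehicle, 12-HETE, vector and ADAR1 p150, 2 libraries each, on axes that start at 0 and differ between panels. Gm44148 is low in the 4 treated libraries, Usp18 is highest in the 2 ADAR1 p150 libraries, and Isg15, Uba7 and Herc6 stay under 8 CPM throughout.

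The ratio of the 2 genes within a library does not depend on its depth, and it was far lower in the treated libraries. There were 59.4 and 56.7 Gm44148 counts per Usp18 count in vehicle cells and 65.9 and 61.6 in vector cells. There were 6.39 and 4.49 under 12-HETE, and 5.85 and 7.07 under ADAR1 p150. The 4 control libraries were close together, no treated library came near them, and the 2 treatments overlapped. As a share of both genes' counts, Gm44148 was 98.3% (Wilson 95% interval 97.5% to 98.9%) in vehicle replicate 4 and 81.8% (75.7% to 86.6%) in 12-HETE replicate 5, the lowest of the 8 libraries. On the log2 scale with 0.5 added to each count, the mean ratio was 5.83 ± 0.048 in vehicle cells, 2.40 ± 0.36 under 12-HETE, 5.96 ± 0.067 in vector cells and 2.67 ± 0.19 under ADAR1 p150 (SD, n = 2). The ratio thus differed from its control by -3.42 under 12-HETE and -3.29 under ADAR1 p150.

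**Figure D3:**
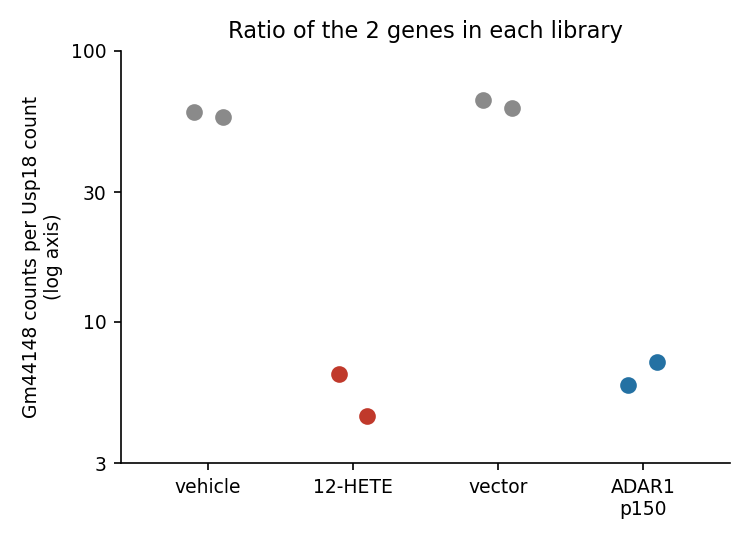
Gm44148 counts per Usp18 count in each library (points), on a log axis, for the 4 groups. The 4 control libraries lie between 56.7 and 65.9 and the 4 treated libraries between 4.49 and 7.07.

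Per length, the opposite-strand gene exceeded Usp18 by far in all 8 libraries. Gm44148 had between 497 and 4171 counts per kb of exon and Usp18 between 7.17 and 17.2. Isg15 had between 1.32 and 11.9 counts per kb, and its libraries overlapped those of Usp18 in vehicle and 12-HETE cells, lay slightly above them in vector cells and below them under ADAR1 p150. Herc6, with 0.108 to 0.861, and Uba7, with 0.149 to 0.598, were the lowest, and these 2 overlapped over the 8 libraries.

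More counts in the non-coding gene than in its coding partner were common in this table. Whether the strand setting of the counts bears on this was not tested. Among 736 opposite-strand pairs with overlapping exons, each made of 1 coding and 1 non-coding gene, with at least 10 counts for the pair in the mean library, 76.0% had more counts for the non-coding gene. In the control libraries the log2 ratio of non-coding to coding counts was 5.89 for Gm44148 and Usp18 and 2.87 at the median of the other 735 pairs. The change of that ratio was more unusual, as the choice of the genes implies. With 12-HETE the median change over the other pairs was 0.089, the lowest 10% of pairs lay under -1.09, and 2 pairs fell by as much as or more than the -3.42 of Gm44148 and Usp18. With ADAR1 p150 the median was -0.033, the lowest 10% lay under -1.13, and 1 pair fell by as much as or more than -3.29. Pairs whose ratio rose by as much were not counted.

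Isg15 (ENSMUSG00000035692.6), the modifier itself, lies at chr4:156199424-156200818 on the minus strand. It had 2 and 9 counts in vehicle cells, 8 and 2 under 12-HETE, 7 and 7 in vector cells, and 1 and 2 under ADAR1 p150. The vehicle and 12-HETE libraries overlapped, while both ADAR1 p150 libraries were below both vector libraries. With 12-HETE the summed counts were 10 against 11, a log2 ratio of -0.33 after normalization (95% interval from counting error alone -1.72 to 1.05). With ADAR1 p150 they were 3 against 14, a log2 ratio of -2.52 (-4.96 to -0.67). The 12-HETE value turned to 1.11 when vehicle replicate 5, the library with 9 counts, was left out, and to 0.30 without 12-HETE replicate 5.

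Uba7 (ENSMUSG00000032596.14), the E1 enzyme, lies at chr9:107975505-107984060 on the plus strand. It had 3 and 1 counts in vehicle cells, 3 and 1 under 12-HETE, 3 and 3 in vector cells, and 1 and 4 under ADAR1 p150. Treated and control libraries overlapped in both experiments. The log2 ratio of summed counts was -0.19 (counting interval -2.61 to 2.23) under 12-HETE and -0.56 (-2.61 to 1.42) under ADAR1 p150, so that no difference could be detected at this depth.

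Herc6 (ENSMUSG00000029798.11), the E3 ligase, lies on the same chromosome as Usp18, at chr6:57581000-57664632 on the plus strand. It had 7 and 5 counts in vehicle cells, 3 and 3 under 12-HETE, 8 and 6 in vector cells, and 1 and 3 under ADAR1 p150. In both experiments the treated libraries were below their controls without overlap, in counts near the floor of 3. The log2 ratio of summed counts was -1.19 (counting interval -2.89 to 0.34) under 12-HETE, where 6 counts stood against 12, and -2.10 (-4.16 to -0.43) under ADAR1 p150, where 4 stood against 14. The pseudogene Gm19244 lies within Herc6 on the opposite strand, shares no exon bases with it, and had between 0 and 6 counts. When both were summed, the log2 fold change was -1.95 under 12-HETE and -1.33 under ADAR1 p150, which exchanged the order of the treatments. Without ADAR1 p150 replicate 1 the Herc6 value under ADAR1 p150 was -1.46, and without replicate 2 it was -3.15. On its own strand Herc6 shares 1269 exon bases with Gm45193, and Uba7 shares 233 with Gm20661, so reads there could belong to either gene.

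Ube2l6, the E2 enzyme that completes the cycle and no member of the 5, had 6 and 3 counts in vehicle cells, 0 and 0 under 12-HETE, 2 and 3 in vector cells, and 2 and 0 under ADAR1 p150. With 12-HETE its log2 ratio had no lower limit, and the upper end of the counting interval was -1.17. A floor of 3 counts over the group would make it 3.42-fold lower, with the 9 vehicle counts taken as exact. With ADAR1 p150 its log2 ratio was -1.61 (counting interval -5.01 to 1.00).

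Of the other genes near Usp18, Tuba8 was also low in both treatments and Pex26 under ADAR1 p150. Within 100000 bases of Usp18 the table held 4 genes beside Gm44148. Tuba8, an alpha-tubulin gene 19051 bases before Usp18 on the same strand, had 16 and 12 counts in vehicle cells, 2 and 4 under 12-HETE, 10 and 14 in vector cells, and 3 and 0 under ADAR1 p150. Its treated libraries were below its controls in both experiments, with a log2 ratio of -2.41 (counting interval -3.98 to -1.11) for 12-HETE and -3.29 (-5.67 to -1.57) for ADAR1 p150. Pex26, a gene of peroxisome assembly 47068 bases before Usp18, had 6 and 3, 6 and 6, 4 and 7, and 1 and 2 counts in the same order of groups. Its vehicle and 12-HETE libraries overlapped, while both ADAR1 p150 libraries were below both vector libraries, with a log2 ratio of -2.17 (counting interval -4.65 to -0.25). Slc6a13 and Slc6a12, transporter genes beyond the 3′ end of Usp18, had 0 counts in all libraries, which 3 counts per library would bound at 2.72 CPM or less.

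The genes whose profile over the 8 libraries was nearest to each of the pair had little in common between the 2 sets. Nearness was the root mean square difference of log2 CPM, each gene centred on its own mean, over genes that averaged 50 counts or more. Nearest to Gm44148 of 2217 genes were Ifi27l2a (0.251), a small interferon-induced membrane protein gene, Mbd6 (0.303), 8030451A03Rik (0.311), the methionyl-tRNA synthetase gene Mars1 (0.337) and Gm36043 (0.354), which overlaps the PD-L1 gene Cd274. Ifi27l2a had 206 and 214 counts in vehicle cells, 30 and 30 under 12-HETE, 231 and 203 in vector cells, and 66 and 80 under ADAR1 p150. Its log2 fold changes were -2.99 and -1.86, and those of the other 4 were between -2.70 and -2.32 under 12-HETE and between -2.41 and -1.83 under ADAR1 p150.

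Nearest to Usp18 of 2218 genes were Gm51816 (0.102), Gm41960 (0.105), Ciao3 (0.107), Gm44040 (0.111) and Gssos2 (0.112). Of these, Gm51816 is a pseudogene, and Gm41960, Gm44040 and Gssos2 are long non-coding RNAs. Gm44040 lies opposite the coding gene Itpr1, and Gssos2 opposite Gss. Whether the strand setting of the counts bears on these profiles was not tested. Gssos2 had 331 and 285 counts in vehicle cells, 440 and 422 under 12-HETE, 306 and 303 in vector cells, and 694 and 663 under ADAR1 p150. The 5 genes had log2 fold changes between 0.24 and 0.41 under 12-HETE and between 0.61 and 0.93 under ADAR1 p150, a span that holds the values of Usp18. Usp18 and Gm44148 themselves differed by 1.67 on this measure. Among 12 interferon-stimulated genes other than the 5, 7 lay nearer to Gm44148 than to Usp18, as did 247 (3.58%) of all genes. Gm44148 was chosen for its fall in these libraries, and the list was written with earlier results of them known. These shares are therefore not independent evidence of a likeness. All these profiles share the same 8 libraries and are a description.

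Genes around the ISG15 cycle were read as 5 lists of 92 genes, of which 40 passed the mean count minimum. With 12-HETE 2 were called higher and 11 lower, beside 6.12% and 8.25% of all 6901 genes. Under ADAR1 p150 0 were called higher and 7 lower, beside 8.11% and 4.69%. Between vector and vehicle 0 were called, with 5 at an unadjusted p under 0.05 in edgeR, and 0 were called in DESeq2, with 1 at such a p. The share of all genes at such a p is not given here. The lists were written with earlier results of these libraries known and their counts are not independent evidence of a direction.

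Of 16 other enzymes and partners of ISG15 7 were tested. Under 12-HETE 1 was called higher and 1 lower, beside 6.12% and 8.25% of all genes, and under ADAR1 p150 0 and 1, beside 8.11% and 4.69%. Their median log2 fold change was 0.34 under 12-HETE and 0.096 under ADAR1 p150, beside 0.0044 and 0.066 over all genes. Trim25, a ubiquitin ligase that can also join ISG15 to targets, fell in both. It had 30 and 36 counts in vehicle cells, 14 and 11 under 12-HETE, 28 and 22 in vector cells, and 15 and 10 under ADAR1 p150, so that the groups did not overlap in either experiment. Its log2 fold changes were -1.58 (SE 0.35, adjusted p = 0.000557, edgeR) and -1.29 (SE 0.36, adjusted p = 0.00751, edgeR). Usp14, a deubiquitinase of the proteasome, rose under 12-HETE from 23 and 34 to 68 and 63 counts, by 1.01 (SE 0.25, adjusted p = 0.00181, edgeR), and its value under ADAR1 p150 was 0.096 (SE 0.26, adjusted p = 0.832, edgeR). The Trim25 call under ADAR1 p150 was lost in DESeq2 (adjusted p = 0.0752) and, in edgeR, without vector replicate 1 or ADAR1 p150 replicate 2. Usp14 lay at the 2-fold limit, and its call was lost in 7 alternatives, DESeq2 (log2 fold change 0.99, adjusted p = 0.057) and the fit without vehicle replicate 4 (0.78, adjusted p = 0.0547, edgeR) among them. Usp14 shares exon bases with the opposite-strand gene Thoc1, whose counts were between 74 and 121.

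Genes of the interferon receptor and of ISGF3, the factor with STAT2 and IRF9 that switches on interferon-stimulated genes, held 1 gene called in both treatments, Stat2. Of 12 genes 6 were tested, and 3, with Stat2 and Irf7 among them, fell under 12-HETE, beside 8.25% of all genes, and 1 under ADAR1 p150, beside 4.69%. Stat2 fell in both, from 21 and 28 to 6 and 3 counts under 12-HETE and from 9 and 18 to 4 and 2 under ADAR1 p150, by log2 fold changes of -2.60 (SE 0.48) and -2.41 (SE 0.58), the second of which was not called without vector replicate 2 (-1.86, adjusted p = 0.0823, edgeR). Irf9, under the mean count minimum and chosen after looking at its values, had 13 and 8 counts in vehicle cells, 0 and 1 under 12-HETE, 10 and 17 in vector cells, and 1 and 2 under ADAR1 p150.

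Other interferon-stimulated genes made up most of the calls. Of 35 genes 12 were tested, 8 fell under 12-HETE, beside 8.25% of all genes, and 5 under ADAR1 p150, beside 4.69%, and 0 rose in either. The median log2 fold changes were -1.98 and -0.96. Oas3, Oasl1 and Oasl2, of the 2′-5′ oligoadenylate synthetase family, Ifi27 and the peptide transporter gene Tap1 fell in both treatments. Irf7, which is also on the ISGF3 list, Isg20 and Parp9 passed the rule under 12-HETE alone. Under ADAR1 p150 Parp9 was at -0.54 (SE 0.19, adjusted p = 0.0281, edgeR) and Isg20 at -0.99 (SE 0.44, adjusted p = 0.0961, edgeR). The test of the difference between the treatments called neither Parp9 nor Isg20. The Isg20 call was lost in DESeq2 (adjusted p = 0.131) and, in edgeR, without vehicle replicate 5 or 12-HETE replicate 4. Oasl2 had 37 and 48 counts in vehicle cells, 3 and 4 under 12-HETE, 33 and 27 in vector cells, and 2 and 4 under ADAR1 p150, with log2 fold changes of -3.74 (SE 0.43) and -3.56 (SE 0.47). Ifi27 had 39 and 48, 1 and 4, 34 and 38, and 8 and 5 counts in the same order, with log2 fold changes of -4.24 (SE 0.46) and -2.74 (SE 0.39). The log2 fold changes of Gm44148 lay within the span of the 5 genes called in both treatments. Gm44148 and the 5 were all selected on these same comparisons, so that placement is no evidence of a likeness. Usp18, with positive values, could not lie within the span. Oas3 had 29 and 43 counts in vehicle cells and 26 and 37 in vector cells, and a sum of 1 count in each treated group, a log2 ratio of -6.36 (counting interval -11.7 to -3.84) and -6.27 (-11.6 to -3.74). Rsad2, which encodes viperin and was chosen after looking at its values, had 19 and 11 counts in vehicle cells, 5 and 6 in vector cells and 0 in all treated libraries. The exons of Irf7, Oasl1, Tap1 and Parp9 overlap genes on the opposite strand, so reads in the shared bases cannot be told apart there either. Like those of all genes, their counts also carry the limit of the unknown strand setting.

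**Figure D4:**
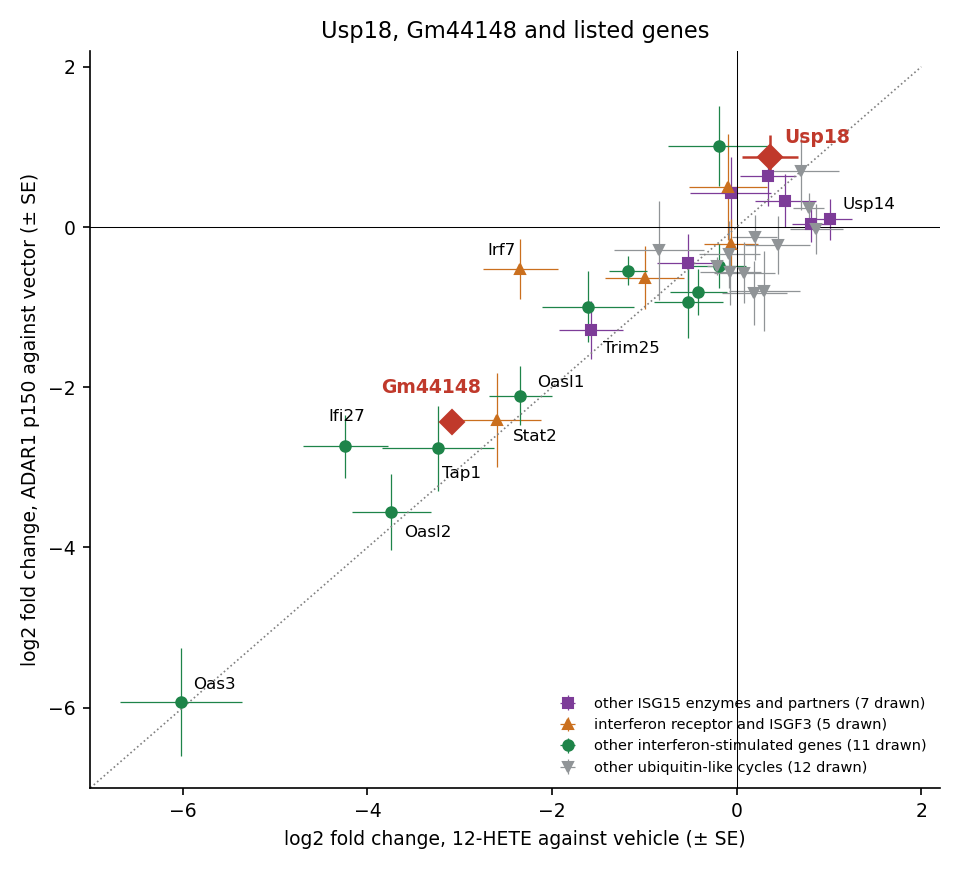
Log2 fold change (± SE) of Usp18 and Gm44148 (diamonds) and of tested list genes under 12-HETE (horizontal axis) and under ADAR1 p150 (vertical axis); the dotted line marks equal changes, Irf7 is drawn once with ISGF3, and the ISG15 targets and 1 tested gene of the ISGF3 list are left out. Gm44148, chosen for its large difference in these comparisons, lies at -3.08 and -2.43 among Ifi27, Tap1 and Stat2. Usp18 lies at 0.36 and 0.87, on the other side of 0 on both axes. The fitted values of Oas3 rest on 1 count in each treated group.

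Among genes for targets of ISG15 and for the enzymes of other ubiquitin-like modifiers, 1 was called over both treatments. Of 14 target genes 4 were tested, and Eif4e2, a cap-binding protein gene, rose under 12-HETE from 5 and 7 to 18 and 17 counts (log2 fold change 1.34, SE 0.46, adjusted p = 0.0261, edgeR), a call that was lost in DESeq2 and when any vehicle or 12-HETE library was left out (adjusted p from 0.0844 to 0.152, edgeR). Of 23 genes of the ubiquitin, SUMO, NEDD8 and other cycles 12 were tested and 0 were called in either treatment. Among all genes 6.12% were called higher and 8.25% lower under 12-HETE, and 8.11% and 4.69% under ADAR1 p150. The median log2 fold changes of the 12 were 0.19 and -0.31, beside 0.0044 and 0.066 over all genes. By adjusted p alone, 2 of the 12 were higher under 12-HETE and 1 was lower under ADAR1 p150. The share of all genes at that looser rule is not given here, so these counts are not read as a result. The 2 were Uba1 and Sumo2 (log2 fold change 0.78, SE 0.17, adjusted p = 0.000575, edgeR). Uba1, the E1 enzyme of ubiquitin and the counterpart of Uba7, had 19 and 29 counts in vehicle cells and 57 and 43 under 12-HETE. It had 21 and 28 in vector cells, and 37 and 22 under ADAR1 p150. Its log2 fold changes were 0.86 (SE 0.29, adjusted p = 0.0201, edgeR) and -0.027 (SE 0.31, adjusted p = 0.964, edgeR), under 2-fold in both.

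The 2 treatments differed in their effects on 8.33% of all tested genes, in either direction. Among the 40 tested list genes 1 differed, Irf7, the interferon regulatory factor that amplifies the type I response. It had 31 and 41 counts in vehicle cells, 11 and 5 under 12-HETE, 30 and 16 in vector cells, and 15 and 24 under ADAR1 p150, so that the groups overlapped only in the ADAR1 p150 experiment. The call was lost in DESeq2 (adjusted p = 0.141) and, in edgeR, when 12-HETE replicate 5, ADAR1 p150 replicate 2, vector replicate 2 or vehicle replicate 5 was left out.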

How the data were processed

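Raw counts per gene, deposited by the authors without normalization, were analysed for 8 RNA-seq libraries. Per the study's methods, paired-end directional libraries were made, and STAR alignments to GRCm38 were assigned to genes with featureCounts. FastQC and removal of duplicates with prinseq are given there for the editing analysis. Whether these counts were made after that removal is not stated there. The labels name another extraction kit and another library kit, and whether reads were counted by strand is not given in the sources used here. The 5 genes and the gene lists were chosen with earlier results of these data known. No columns of other samples were in the table.

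Genes averaging under 10 counts were removed. TMM factors and the quasi-likelihood test came from edgeR 4.0.16 (limma 3.58.1, R 4.3.3), in 1 fit of all 8 libraries with a coefficient for each group and no replicate block. Standard errors are the log2 fold change divided by the square root of F. Genes were called at a Benjamini-Hochberg adjusted p under 0.05 and 2-fold. For genes under the minimum, summed counts over TMM-scaled totals were compared, with exact binomial 95% intervals that cover counting error only. Gene positions, strands and exon sequences are from GENCODE M21 and promoters from RefSeq GRCm38.p6. Totals per library lay between 1101767 and 1537037 counts.

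Alternatives were DESeq2 1.42.0, RLE factors, no minimum, 10 counts in every library, a fit of 4 libraries, a replicate block, leaving out each library or the most abundant gene, adjusted p alone, the sum of both strands, and a pseudocount of 2 in place of 0.5 in the ratio of Gm44148 to Usp18. The crossed pairing was chosen after seeing the data. The script was tested on simulated data. Named genes are the 5 genes, called list genes or those with an enzyme role, genes within 100000 bases of Usp18 or overlapping a member, and the 5 genes nearest in profile to Usp18 and Gm44148. Others were chosen after their values were seen. The values of some list and marker genes are not reported here.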

Additional observations from a re-analysis of the deposited data

Results flagged for a closer look

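Irf7 was flagged because the effects of the 2 treatments on it differed in the test of the difference itself. The effect of 12-HETE minus that of ADAR1 p150 was -1.81 on the log2 scale (SE 0.57, adjusted p = 0.0254, edgeR). It fell by 2.34 under 12-HETE (SE 0.41, adjusted p = 2.81e-05, edgeR), and its value under ADAR1 p150 was -0.53 (SE 0.37, adjusted p = 0.326, edgeR). Over 15 fits the difference lay between -2.42 and -1.38 and was called in 10. The exons of Irf7 overlap those of Phrf1 on the opposite strand.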

How the results depend on the processing

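Summing Usp18 with Gm44148 turned the direction of Usp18, to -2.86 for 12-HETE and -2.25 for ADAR1 p150, and gave -2.86 for Gm44148 under 12-HETE, which follows from the larger counts of Gm44148. The Usp18 change under ADAR1 p150 was 0.81 in DESeq2 and with RLE factors, 0.76 with no minimum, 0.90 with 10 counts in every library, 0.82 in the fit of 4 libraries and 0.82 without AY036118. For vector against vehicle, Usp18 changed sign to -0.027 with 10 counts in every library, a value near 0 throughout. Leaving out 1 library at a time gave 0.14 to 0.56 for Usp18 under 12-HETE, 0.82 to 0.88 for Usp18 under ADAR1 p150, -0.017 to 0.071 for Usp18 in vector against vehicle, and -3.24 to -2.99 for Gm44148 under 12-HETE. List genes called numbered 25 with no minimum and 2 with 10 counts in every library for 12-HETE, and 13 and 1 for ADAR1 p150, because those filters change which genes are tested. The share of all genes called under each alternative is not given here, so these numbers have no background beside them. List genes with different effects numbered 0 in DESeq2, 0 with 10 counts in every library and 2 by adjusted p alone. Leaving out 1 library at a time gave -2.42 to -1.38 for the Irf7 difference, and which list genes were called was not the same throughout. With a pseudocount of 2 the log2 ratio of Gm44148 to Usp18 was 5.73 in vehicle cells and 5.86 in vector cells.

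Same-numbered libraries did not deviate together, with a correlation over 6901 genes of -0.080 for vehicle and 12-HETE and -0.114 for vector and ADAR1 p150, so the numbers were not taken as pairs. With the replicate block the log2 fold changes were -3.08 and -2.43 for Gm44148 and 0.36 and 0.87 for Usp18, and 13, 7 and 1 list genes were called for 12-HETE, ADAR1 p150 and the difference, as without it. The crossed pairing called 7 for ADAR1 p150 and 1 for the difference. Beside the strand setting, which limits all genes, depth limits Isg15, Uba7 and Herc6, whose values rest on 1 to 9 counts per library.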

Other observations

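Genes of the UFM1 cycle, another ubiquitin-like modifier, were under the mean count minimum and were chosen here after their values were seen. Ufc1, its E2 enzyme, had 5 and 4 counts in vehicle cells, 16 and 18 under 12-HETE, 3 and 7 in vector cells, and 9 and 11 under ADAR1 p150. Ufm1 itself had 3 and 4, 8 and 8, 4 and 0, and 3 and 1 counts in that order. The 12-HETE libraries were the highest for Ufc1 and Ufm1, in counts too low for a test.

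Ddx58, Ifih1 and Eif2ak2, which encode the RNA sensors RIG-I, MDA5 and PKR, also missed the minimum. Ddx58 had 7 and 18 counts in vehicle cells, 8 and 7 under 12-HETE, 8 and 13 in vector cells, and 9 and 5 under ADAR1 p150. Ifih1 had between 2 and 5 counts and Eif2ak2 between 4 and 13, and neither separated treated from control libraries in both experiments. Eif2ak2 shares exon bases with the opposite-strand gene Gm26637, which had between 103 and 150 counts.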
